A study of Mus musculus with 6 samples.

Results

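The regions described are the H3K4me3 peaks gained after 6TCF, that is, peaks listed for 6TCF-treated mouse embryonic fibroblasts that have no counterpart in untreated fibroblasts. A treated peak was counted as gained when no untreated H3K4me3 peak lay within 1000 bp, when it overlapped no input peak of either condition, when it was at most 7000 bp wide and when it was not on the mitochondrial genome. There were 1788 such peaks among the 18185 peaks of the treated list, or 9.83% (95% Wilson interval 9.41 to 10.3, which covers counting error only). The members were selected on measured values, the peak positions and widths of the H3K4me3 lists and the input lists, so the number is a description and carries no test. The mirrored rule gave 763 lost peaks among 17168 untreated ones, or 4.44%.

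ChIP-seq, the sequencing of DNA precipitated with antibodies to histone marks, was carried out on fibroblasts of C57BL/6 embryos on day 6, either treated with 6TCF, which the labels call a chemical combination, or left as an untreated control. For each condition there was 1 library titled H3K4me3, 1 titled H3K27me3 and 1 of input DNA, which is sheared chromatin without precipitation. The growth protocol, worded alike for all 6 libraries, describes a switch to a medium with 15% serum and 40 ng/ml basic fibroblast growth factor, and does not say separately which medium the untreated cells received. The series title places the work in the chemical conversion of fibroblasts towards several lineages. Titles and antibody field disagree: the field names H3K4me2 for the libraries titled H3K4me3 and H3K4me1 for those titled H3K27me3, while the titles and the extraction protocol were followed here. Whether embryos were pooled is not given in the sources used here. Peak lists hold no expression or gene names, so the identity of the cells could not be checked against fibroblast markers. With 1 library per group, differences between conditions could not be set against replicate spread, and no p-value is given.

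Trimethylation of histone H3 at lysine 4 is deposited by SET1 and MLL family methyltransferases and sits mainly at the start sites of genes that are active or poised for activity. Trimethylation at lysine 27 is deposited by Polycomb repressive complex 2 and marks silenced developmental genes. Promoters that carry both marks are called bivalent, a state described at many regulators of development. In cells that change their identity, new H3K4me3 can appear at promoters that were silent before. In a population of cells, a mark that is present in few cells and a weak mark in many cells cannot be told apart.

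Each peak is given by its position on the mouse build mm9, and its width, the number of bases between its ends, is its only other value. Read depth is unknown, since the lists hold no counts or peak heights. A peak missing from a list is therefore not shown to lack the mark. Regions are named by position alone, because the gene table at hand follows another build. No sequence is printed for the same reason.

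Most gained peaks were narrow, with 1269 of the 1788 (71.0%) up to 1000 bp wide and 68 (3.80%) over 2000 bp. The median gained peak was 860 bp wide (95% interval of the median from order statistics 843 to 874), with quartiles of 705 and 1043 bp and a range of 384 to 6708 bp. Lost peaks had a median of 829 bp (795 to 853). Treated peaks that overlapped an untreated one had a median of 2149 bp (2128 to 2169, 16115 peaks after the same filters on input, width and mitochondrial position). The median gained peak stood at percentile 8.75 of widths in its own list. Gained peaks covered 1.74 Mb of the 40.6 Mb in that list, or 4.29%.

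**Figure D1:**
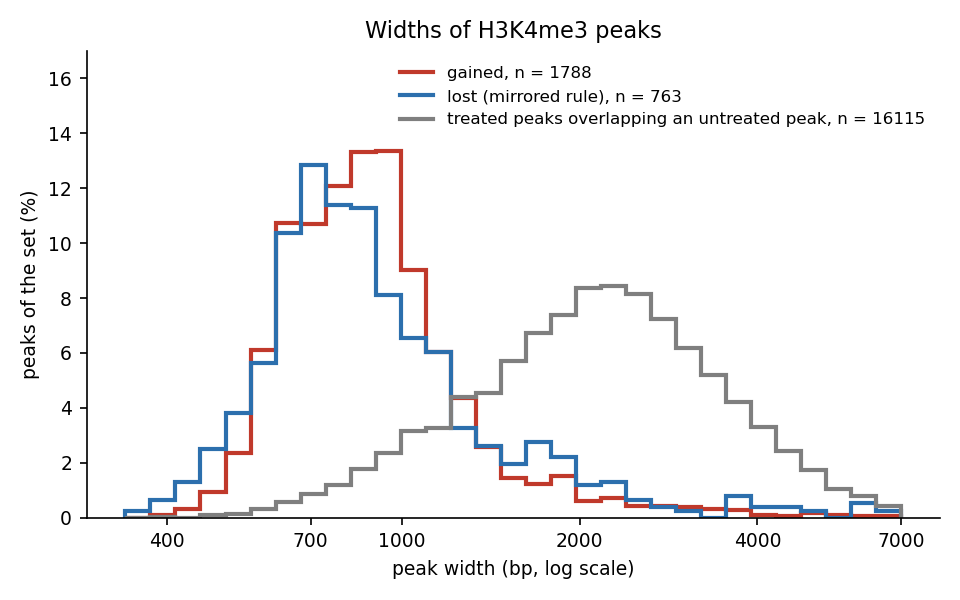
Distribution of peak width in bp (log axis) for the 1788 gained peaks (red), the 763 lost peaks (blue) and the 16115 treated peaks that overlap an untreated peak (grey), as the percent of each set per width bin. Gained and lost peaks lie at similar narrow widths, with medians of 860 and 829 bp, while overlapping peaks have a median of 2149 bp.

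The surplus of gained over lost peaks lay mainly between 500 and 1500 bp. Of treated peaks over 500 and up to 750 bp, 554 of 884 were gained (62.7%, 59.4 to 65.8), while 259 of 777 untreated peaks of that width were lost (33.3%, 30.1 to 36.7). From 750 to 1000 bp the numbers were 690 of 1558 (44.3%, 41.8 to 46.8) gained and 232 of 1436 (16.2%, 14.3 to 18.1) lost, which is 2.97 gained peaks for each lost one. Between 1000 and 1500 bp, 380 of 3034 treated peaks were gained (12.5%, 11.4 to 13.8) and 139 of 2730 untreated ones lost (5.09%, 4.33 to 5.98). Over 1500 bp the intervals of both shares overlapped in every class. From 2000 to 3000 bp there were 44 gained and 23 lost peaks. In the class over 3000 bp there were 24 gained peaks (0.637% of 3768, 0.428 to 0.946) and 22 lost ones (0.538% of 4086, 0.356 to 0.814). Over 4000 bp there were 9 gained and 13 lost.

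**Figure D2:**
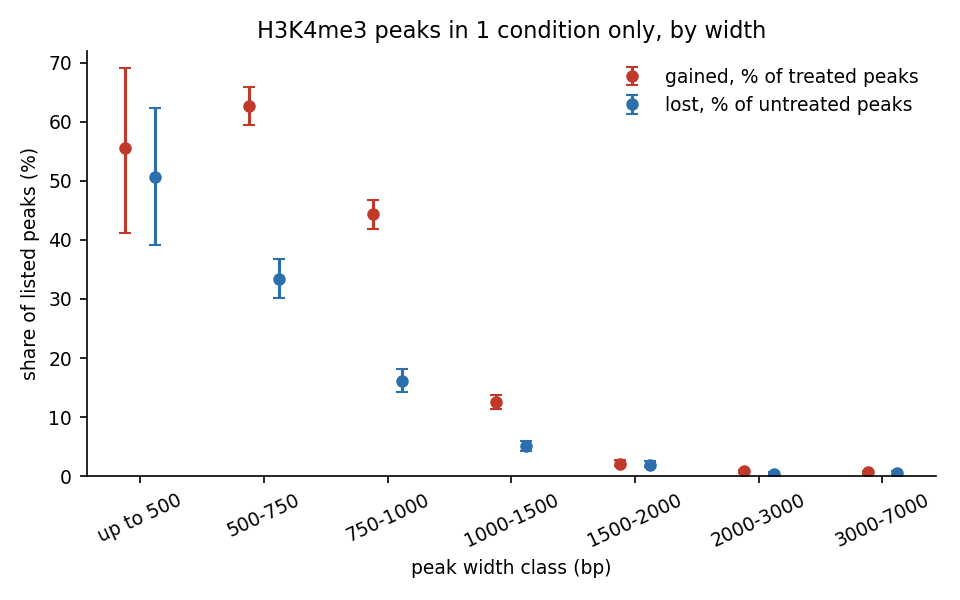
Share of listed H3K4me3 peaks, in percent, that were gained (red, of treated peaks) or lost (blue, of untreated peaks) in each width class in bp, after leaving out peaks that overlap input. Bars are 95% Wilson intervals. The shares lie far apart between 500 and 1500 bp and meet above 1500 bp.

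The size of this surplus depended on the lengths of the lists. When the widest 17168 peaks were kept in each H3K4me3 list, the rule gave 1176 gained and 1121 lost peaks, numbers that equal list lengths bring close together by construction. With gained peaks of at least 1000 bp only, 525 remained.

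The 10 widest gained peaks, leaving out chromosome 18, had no H3K27me3 peak of either condition at their position. That they had no input peak and no untreated H3K4me3 peak there is set by the rule. Of overlapping peaks over 3000 bp by treated width, 2.00% had an untreated and 0.561% a treated H3K27me3 peak. With 10 peaks, none cannot be told apart from such shares. The widest was chr2:13494235-13500942 with 6708 bp in treated cells, 27.3 kb from the nearest untreated H3K4me3 peak. On the same chromosome, chr2:34625874-34632040 had 6167 bp with an untreated peak 14.6 kb away, and chr2:104965046-104969919 had 4874 bp with the nearest untreated peak 94.3 kb away. Ranked by width in the treated list, whose widest peak had 9030 bp, these 3 peaks stood at percentiles 99.4, 98.9 and 96.4.

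On chromosome 6 a pair of wide gained peaks lay 1.59 kb apart. They were chr6:134869321-134874586 with 5266 bp and chr6:134876174-134880061 with 3888 bp, and the nearest untreated peak was 19.6 kb from the first. Joined, they would span 10741 bp, which is more than the widest untreated peak listed (9151 bp), so an untreated peak over both could be missing from a list limited in width. The same holds for chr9:106786375-106790123 (3749 bp) and chr9:106792307-106795627 (3321 bp), which join to 9253 bp.

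Other wide gained peaks stood alone or beside a peak present in both lists. The peak chr1:71696578-71701320 was 4743 bp wide and lay 91.1 kb from any untreated peak, and chr10:86165530-86169936 was 4407 bp wide at 16.6 kb. At chr3:88424310-88428268 the width was 3959 bp and the distance 11.6 kb. Close neighbours were found for chr9:58092819-58098335 (5517 bp, untreated peak at 2.52 kb) and chr12:9580497-9585282 (4786 bp, untreated peak at 2.29 kb). The tenth, chr6:52107485-52111598 with 4114 bp, belonged to a group described further on. Of the 24 gained peaks over 3000 bp, 13 lay more than 20 kb from an untreated peak and 4 within 5 kb.

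Among peaks over 1500 bp, the share with an H3K27me3 peak of untreated cells was higher for gained peaks than for H3K4me3 peaks found in both conditions, with intervals that did not overlap and no test of the difference. Over 1500 bp, 14 of 139 gained peaks (10.1%, 6.09 to 16.2) overlapped an untreated H3K27me3 peak by at least 1 bp. Among overlapping peaks of over 1500 bp the share was 2.87% (2.59 to 3.18, 352 of 12272), and 2.01% (1.77 to 2.28) when the width of the untreated partner was used for the limit. Both intervals lie below that of gained peaks. Over 1000 bp the shares were 5.59% (3.92 to 7.91, 29 of 519) for gained peaks and 2.94% (2.68 to 3.22) for overlapping ones by treated width. Over 2000 bp they were 8.82% (4.11 to 17.9, 6 of 68) and 2.51% (2.21 to 2.85), and for lost peaks 6.67% (2.29 to 17.9, 3 of 45). Over 3000 bp the order was not the same: none of the 24 gained peaks overlapped an untreated H3K27me3 peak, which allows a share of up to 12.5% (3 counts of the total), while 2.00% (1.60 to 2.50) of overlapping and 9.09% (2.53 to 27.8, 2 of 22) of lost peaks did. With H3K27me3 peaks of treated cells the gained share was also the higher one, so a higher share was not particular to the untreated list, but it rests on few peaks. Over 1000 bp it was 2.12% (1.19 to 3.75, 11 of 519), against 0.979% (0.833 to 1.15) of overlapping peaks by treated width. Over 1500 bp the shares were 2.88% (1.12 to 7.17, 4 of 139) and 0.937% (0.781 to 1.12), with intervals that meet. Over 2000 bp they were 2.94% (0.810 to 10.1, 2 of 68) and 0.840% (0.672 to 1.05). Over 3000 bp they were 4.17% (0.739 to 20.2, 1 of 24) and 0.561% (0.367 to 0.856), and at both of these limits the intervals overlapped. These width limits were set after the lists had been explored, and widths above each limit were not matched between the sets. Of peaks over 1000 bp, 380 of 519 gained and 2639 of 14911 overlapping ones were up to 1500 bp wide. Of those over 1500 bp, 68 of 139 gained and 9049 of 12272 overlapping ones were over 2000 bp wide. How far this mix of widths bears on the shares was not tested.

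Without a width limit there was no such difference. Of all 1788 gained peaks, 48 overlapped an untreated H3K27me3 peak (2.68%, 2.03 to 3.54), against 2.78% of all treated H3K4me3 peaks that pass the filters on input, width and mitochondrial position. For H3K27me3 peaks of treated cells the number was 19 (1.06%, 0.681 to 1.65), against 0.964% of the same treated H3K4me3 peaks. Up to 750 bp, where many gained peaks lie, 5 of 579 (0.864%, 0.369 to 2.01) had an untreated H3K27me3 peak. Overlapping peaks of that width had it at 0.291% (0.0513 to 1.63) by treated and 1.86% (1.01 to 3.39) by untreated width. From 1000 to 1500 bp, gained peaks at 3.95% (2.41 to 6.41) lay between 3.26% (2.65 to 4.01) and 6.21% (5.34 to 7.22) for overlapping peaks by treated and untreated width. Above 1500 bp gained peaks had the higher share by either width, while in these narrower classes the side depended on the width used.

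Among lost peaks the share with untreated H3K27me3 was lower than among gained peaks, and the intervals did not overlap. An untreated H3K27me3 peak was at 7 of 763 (0.917%, 0.445 to 1.88), against 2.43% of all untreated H3K4me3 peaks under the same filters. A treated H3K27me3 peak was at 4 (0.524%, 0.204 to 1.34), against 0.787%, a value inside the interval. The untreated H3K27me3 list is the other condition for gained peaks but the same condition for lost ones. With H3K27me3 of the same condition the shares were 1.06% (0.681 to 1.65) for gained and 0.917% for lost peaks, and the intervals overlap. With that of the other condition they were 2.68% (2.03 to 3.54) and 0.524%, from lists of 1242 and 821 peaks. Over 1500 bp, 3 of 99 lost peaks (3.03%, 1.04 to 8.53) had an untreated H3K27me3 peak, an interval that overlaps that of gained peaks, so wide gained and wide lost peaks were not separated.

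**Figure D3:**
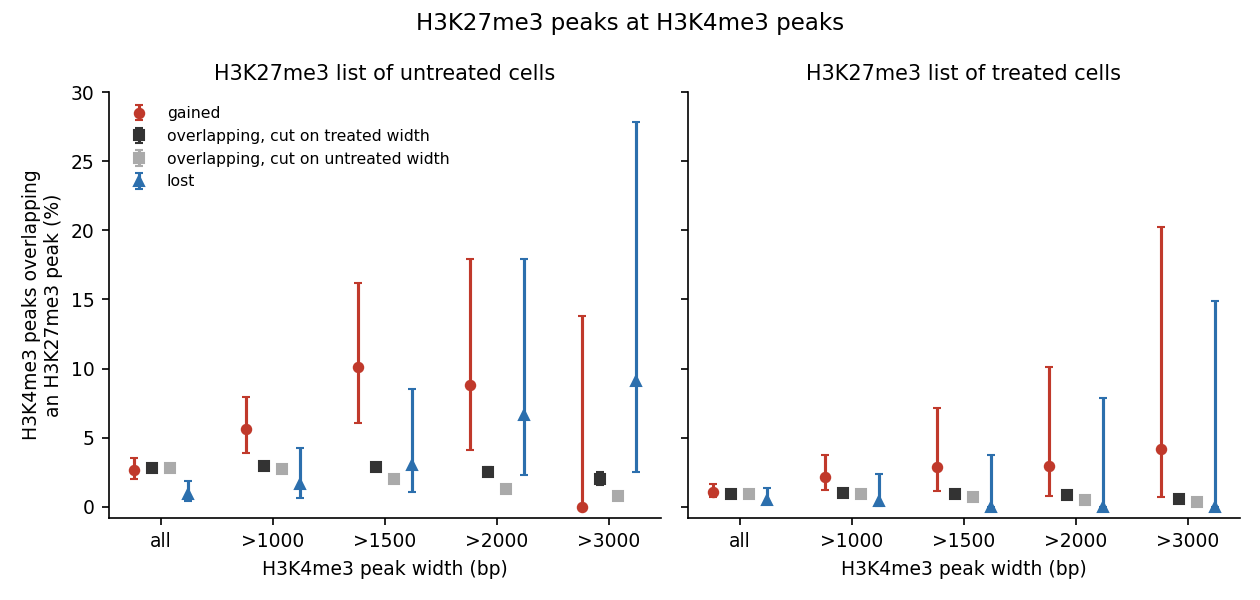
Share of H3K4me3 peaks, in percent, that overlap an H3K27me3 peak of untreated (left) or treated cells (right), for all peaks and for peaks over 4 width limits in bp. Red circles are gained peaks, squares are treated peaks that overlap an untreated one (dark by treated width, light by untreated width), blue triangles are lost peaks, and bars are 95% Wilson intervals. The gained peaks over 1500 bp stand at 10.1% in the left panel and 2.88% in the right, above both series of squares in each. Over 3000 bp in the left panel, 0 of 24 gained peaks overlap, below both series of squares (2.00% and 0.755%).

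At 46 of the 48 gained peaks the H3K27me3 peak was listed in untreated cells and not in treated ones (95.8%, 86.0 to 98.8). The same was so at 394 of 448 overlapping peaks with untreated H3K27me3 (87.9%, 84.6 to 90.6), and these intervals overlap. The treated H3K27me3 list was also the shorter one, with 821 peaks against 1242. Input lists held 604 peaks for treated and 740 for untreated cells, so the H3K27me3 lists were not far above input in length. Median H3K27me3 widths of 149 bp (treated) and 211.5 bp (untreated) were below the average sheared length of 600 bp. Every H3K27me3 share here rests on these short lists. The widest of the 48 gained peaks was chr11:75006451-75009207. There treated cells had an H3K4me3 peak of 2757 bp and untreated cells an H3K27me3 peak of 771 bp inside it. By the rule, neither input list held a peak there. The nearest untreated H3K4me3 peak was 2.00 kb away and the nearest treated H3K27me3 peak 1800 kb. At chr7:17059639-17062325 a treated H3K4me3 peak of 2687 bp enclosed an untreated H3K27me3 peak of 530 bp, with an untreated H3K4me3 peak 20.1 kb away. The region chr9:59986852-59989458 was more remote: its treated H3K4me3 peak of 2607 bp lay 380 kb from any untreated H3K4me3 peak and enclosed an untreated H3K27me3 peak of 216 bp. These regions, taken by H3K4me3 width, had H3K4me3 but no H3K27me3 listed in treated cells and the reverse in untreated cells. The H3K4me3 part of this pattern is set by the rule.

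In 2 further regions the H3K27me3 peak lay at the edge. At chr11:98188190-98190461 (2272 bp) an untreated H3K27me3 peak of 1187 bp reached past the start of the gained peak. At chr12:111426045-111428097 (2053 bp) an untreated H3K27me3 peak of 287 bp lay at the start. Over all 48 gained peaks there were 51 untreated H3K27me3 peaks, of which 37 lay wholly inside the H3K4me3 peak and 29 had their midpoint nearer to its centre than to either end. Their median width was 278 bp, against 211.5 bp for the whole untreated H3K27me3 list and 313 bp for those at H3K4me3 peaks found in both conditions.

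Chromosomes 7 and 11 held 10 and 9 of these 48 gained peaks. They held 64 and 104 of the 1242 untreated H3K27me3 peaks and 133 and 141 of the 1788 gained peaks. Chromosome 2 held 105 untreated H3K27me3 peaks and 111 gained peaks, with 1 in common. Counts this small leave wide intervals, and the order of the chromosomes was not tested.

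H3K27me3 peaks of treated cells lay at 19 gained peaks, 2 of which also had an untreated one. The widest was chr11:94813166-94816443, a gained peak of 3278 bp that enclosed 3 treated H3K27me3 peaks of 362, 741 and 1104 bp. Untreated cells had neither mark listed there, and the nearest untreated H3K27me3 peak was 195 kb away. Next came chr13:40798946-40801032 with 2087 bp of H3K4me3 and a treated H3K27me3 peak of 352 bp across its end. At chr2:170321467-170323372 (1906 bp) a treated H3K27me3 peak of 486 bp lay across the start, and an untreated H3K27me3 peak lay 0.135 kb from the gained peak. The peaks chr16:17914030-17915687 (1658 bp) and chr11:77744083-77745517 (1435 bp) enclosed treated H3K27me3 peaks of 323 and 393 bp. At these 5 peaks both marks were listed in treated cells. The 2 regions with H3K27me3 in both conditions were chr8:108190407-108190792, a gained peak of 386 bp, and chr9:43013473-43014530 with 1058 bp, and both were named after their values were seen.

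Some gained peaks lay close together, though most had no other gained peak nearby. Another gained peak lay within 20 kb of 202 of the 1788 (11.3%, 9.91 to 12.8), against 921 of the 16115 overlapping peaks (5.72%, 5.37 to 6.08). The rule keeps gained peaks more than 1000 bp from every untreated peak but sets no distance between gained peaks. Its part in this difference was not tested. By the mirrored measure, 59 of 763 lost peaks (7.73%, 6.04 to 9.85) had another lost peak as near. Fewer lost peaks leave fewer partners, so these shares are not on equal terms. Groups of at least 3 gained peaks, with at most 20 kb between neighbours, numbered 11 and held 34 peaks, and 10 of the 11 are on chromosomes other than 18. Gained peaks less than 1000 bp apart were counted as separate, so some neighbours may be parts of 1 region. Such neighbours were in the groups chr10:79804898-79821381, chr6:83018351-83038069 and chr7:51590916-51609525.

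The widest group in bases covered was on chromosome 6, chr6:52100510-52126921, with 3 gained peaks of 835, 4114 and 2093 bp and no untreated H3K4me3 peak between them. The distances from these peaks to the nearest untreated one were 38.9, 28.7 and 13.4 kb. Neither H3K27me3 list held a peak in the span. The first members join to 11089 bp, more than the widest untreated peak listed, so the width limit bears on this group too.

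On chromosome 7 there were 2 groups with untreated H3K27me3. In chr7:19744970-19765183 the gained peaks were 1084, 1327 and 1641 bp wide, and the last, chr7:19763543-19765183, overlapped untreated H3K27me3 peaks of 196 and 286 bp. It lay 1.03 kb from an untreated H3K4me3 peak, just beyond the limit of the rule. In chr7:51590916-51609525 the gained peaks were 653, 947 and 1899 bp wide, and the first and the last overlapped untreated H3K27me3 peaks of 238 and 473 bp. No treated H3K27me3 peak was listed in either span.

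The group with the most members was chr8:74178314-74218128, with 4 gained peaks of 674, 987, 1739 and 1542 bp. They flanked 2 H3K4me3 peaks that both lists held, and no H3K27me3 peak of either condition was listed in the span.

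**Figure D4:**
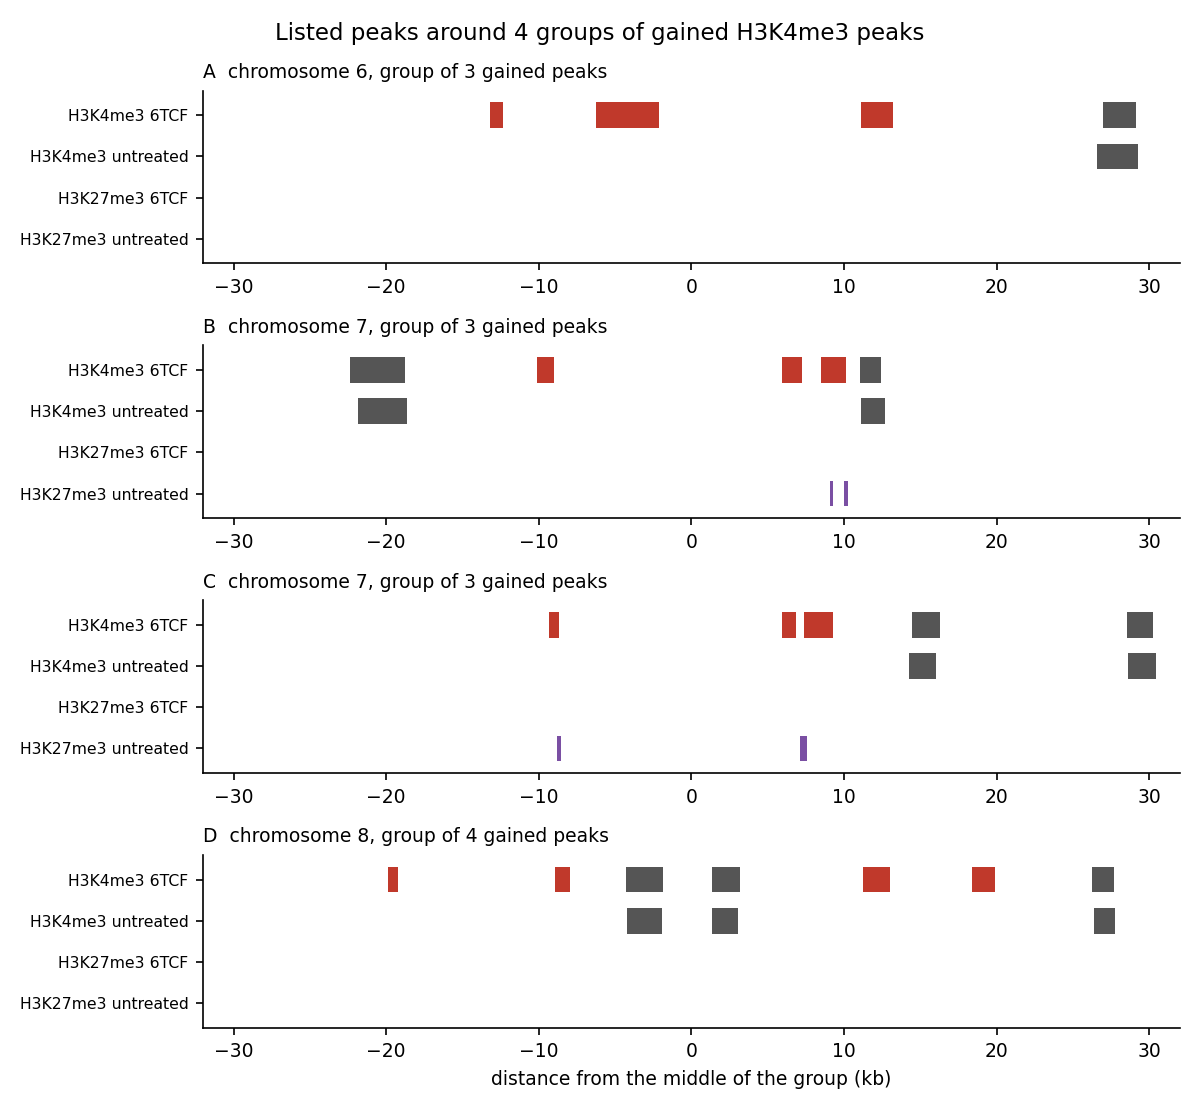
Listed peaks of both marks and both conditions around 4 groups of gained H3K4me3 peaks, drawn to scale by distance in kb from the middle of each group. Gained peaks are red, other H3K4me3 peaks grey and H3K27me3 peaks purple. Group A on chromosome 6 has no H3K27me3 peak, groups B and C on chromosome 7 have H3K27me3 in untreated cells only, and group D on chromosome 8 flanks 2 peaks present in both lists.

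The remaining groups were of narrow to middling peaks. At chr4:139376992-139389588 the members were 1016, 893 and 1039 bp wide, and the nearest untreated peak was 196 to 208 kb away, farther than in any other of the 11 groups. At chr2:167984319-167995888 they were 880, 1290 and 658 bp wide, with untreated peaks 32.8 to 40.7 kb away. The groups at chr10:79804898-79821381 (peaks of 1121 to 1810 bp), chr4:126278936-126304886 (803 to 982 bp), chr5:140011085-140034933 (935 to 1548 bp) and chr6:83018351-83038069 (937 to 2485 bp) each had 1 untreated peak within their span. In the last of these a treated H3K27me3 peak of 317 bp lay inside the gained peak chr6:83037133-83038069.

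On the scale of 1 Mb, gained peaks were spread over 1018 of the 2209 windows with any treated H3K4me3 peak, and 190 windows held 3 or more. The highest count was 7, in 2 windows. In chr5:120000001-121000000 the treated list held 14 peaks, of which 7 were gained, and the untreated list held 7. In chr11:116000001-117000000 the numbers were 31 treated peaks with 7 gained, and 24 untreated peaks. Neither window, both picked for their gained count, held a lost peak. With 763 lost peaks against 2209 windows, most windows held none.

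Gained peaks lay about as far from other treated H3K4me3 peaks as overlapping peaks did, though the rule bears on this distance. It keeps gained peaks more than 1000 bp from every untreated peak, while overlapping peaks have no such limit. The nearest other treated peak was at a median of 24.7 kb from gained peaks and 24.9 kb from overlapping ones. It lay within 5 kb for 12.9% (11.4 to 14.5) of gained and 11.8% (11.3 to 12.3) of overlapping peaks, and beyond 100 kb for 15.0% (13.5 to 16.8) and 13.8% (13.3 to 14.4). The distance from a gained peak to the nearest untreated peak had a median of 28.9 kb and quartiles of 10.7 and 75.0 kb. For lost peaks and the nearest treated peak the median was 30.9 kb.

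Width and overlap with untreated H3K27me3 varied with the distance to the nearest untreated H3K4me3 peak. The 185 gained peaks at 1 to 5 kb had a median width of 1096 bp (1036 to 1156), and 22.7% (17.3 to 29.3) were over 1500 bp. The 536 peaks at 5 to 20 kb had a median of 858 bp (836 to 880), with 5.97% (4.26 to 8.31) over 1500 bp. Beyond 100 kb the 334 gained peaks had a median of 821 bp (788 to 860), with 8.38% (5.86 to 11.8) over 1500 bp. An untreated H3K27me3 peak was at 5.95% (3.35 to 10.3) of those within 5 kb and 1.20% (0.467 to 3.04) of those beyond 100 kb. For treated H3K27me3 the shares were 1.08% (0.297 to 3.86) and 0.898% (0.306 to 2.61), with overlapping intervals. Gained peaks within 5 kb were also the wider ones, and whether H3K27me3 varied with distance apart from width was not tested. Lost peaks had their highest median width in the same range, 1030 bp (934 to 1182) at 1 to 5 kb, against 761 bp (718 to 804) beyond 100 kb.

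The 5 most isolated gained peaks off chromosome 18 were all under 1000 bp wide. The farthest from any untreated H3K4me3 peak was chr12:94900083-94900667, 585 bp wide and 1810 kb away. Next were chr8:7439871-7440768 (898 bp, 1210 kb), chr15:71558061-71558829 (769 bp, 1080 kb), chr5:26333361-26334235 (875 bp, 1070 kb) and chr13:39919284-39920218 (935 bp, 866 kb). The peak on chromosome 5 enclosed an untreated H3K27me3 peak of 121 bp. A total of 27 gained peaks (1.51%, 1.04 to 2.19) were more than 500 kb from an untreated peak, and so were 14 lost peaks (1.83%, 1.10 to 3.06) from a treated one.

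Few peaks lay near the limit of 1000 bp. Just inside the gained set, at up to 1500 bp, there were 22 peaks off chromosome 18, the widest being chr11:96159891-96162699 (2809 bp, 1010 bp away), chr10:42354881-42357440 (2560 bp, 1178 bp away) and chr5:33775792-33778183 (2392 bp, 1379 bp away). Just outside it, at over 500 bp, there were 17, the widest being chr7:53087921-53089779 (1859 bp, 998 bp away), chr2:28320808-28322513 (1706 bp, 631 bp away) and chr10:44246436-44248113 (1678 bp, 619 bp away). The last of these overlapped an untreated H3K27me3 peak.

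Gained peaks came from all autosomes and from chromosome X. The share of treated peaks that were gained ran from 6.35% on chromosome X (4.64 to 8.63, 37 of 583) to 12.4% on chromosome 18 (9.83 to 15.4, 66 of 534). Chromosome 2 was the lowest autosome at 7.69% (6.43 to 9.18, 111 of 1443), and chromosome 10 had 11.4% (9.49 to 13.5). Chromosomes next to each other in the order of these shares had overlapping intervals. On chromosome X 3.20% (2.04 to 5.01) of untreated peaks were lost, also below the 4.44% of the whole list, and that interval includes the whole-list value. Chromosome 11 had 141 gained and 41 lost peaks, and chromosome 19 had 58 and 15. None of the 9 treated peaks on chromosome Y was gained, which allows a share of up to 33.3%.

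**Figure D5:**
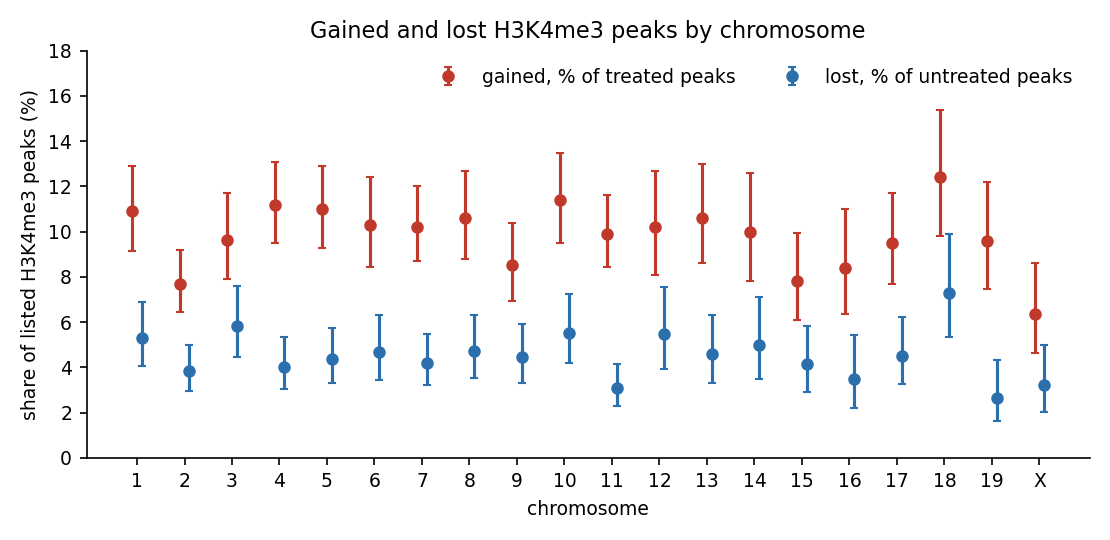
Share of treated H3K4me3 peaks that were gained (red) and of untreated peaks that were lost (blue), in percent, for each autosome and chromosome X, with 95% Wilson intervals. Gained shares run from 6.35% on chromosome X to 12.4% on chromosome 18, and on each chromosome shown the gained share is above the lost share.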

How the data were processed

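Each library has its own deposited peak list, whose rows hold a position, a strand sign that is always the same and no other value. Positions in the deposited lists are in bp on mm9, per the labels. Tools named in the submitters' processing notes, without their role, are Bowtie2 2.2.5, CASAVA 1.7, HOMER and MACS 1.4.3. Per the labels' protocols, chromatin was sheared to an average of 600 bp. Calling threshold and control, which set how many narrow peaks are listed, are not given in these sources.

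Starts were read as 0-based BED positions and are printed 1-based. Width is the end minus the start, and adjacent peaks have a distance of 1 bp. Overlaps and distances came from scripts (Python 3.11.15, pandas 2.3.3, numpy 2.4.6, scipy 1.17.1), and the 1788 gained peaks were also counted with bedtools 2.31.1. The code of the rule was checked on simulated data made from 17060 untreated H3K4me3 peaks: it found 300 of 300 peaks added beyond 1000 bp and called 0 of 60 added nearer. These peaks were placed with the distance measure that the rule uses, so the outcome was fixed in advance. It does not show whether the rule finds true gains of the mark. No test of the treatment was possible with 1 library per group.

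The members, lists and comparisons were chosen with earlier results of these data known. Peaks named are the 10 widest, the 5 widest for each H3K27me3 list, the 5 farthest from an untreated peak, the groups of at least 3 and the 3 widest on either side of the 1000 bp limit, leaving out chromosome 18. Gene lists fixed in the design were not evaluated, because peaks could not be placed on genes. The alternatives were other distances, width limits, input filters and overlap rules.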

Additional observations from a re-analysis of the deposited data

How the results depend on the processing

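Another distance (0, 2000 or 5000 bp), input-overlapping peaks kept, peaks over 7000 bp kept or peaks over 5000 bp left out gave 1603 to 1828 gained peaks. The number fell to 525 with peaks of at least 1000 bp only and to 1176 with the same number of widest peaks in both lists. The median width was 839 bp with a distance of 5000 bp and 1215 bp with peaks of at least 1000 bp. The share with an untreated H3K27me3 peak was 5.52% for peaks of at least 1000 bp and 3.64% with H3K27me3 within 1000 bp, and 2.10% of peaks of at least 1000 bp had a treated one. With input-overlapping peaks kept, 3.22% of gained peaks had an untreated H3K27me3 peak and 1.61% a treated one. The share with another gained peak nearby was 9.86% with a distance of 5000 bp, 9.14% with peaks of at least 1000 bp, and 6.04% and 20.3% when nearby meant 10 and 50 kb. A wider or narrower search moves such a share by construction; for the shares by peak width and by the distance of 5000 bp, the cause was not tested. Among gained peaks over 1500 bp, the share with an untreated H3K27me3 peak was 8.63% to 10.3% under 5 alternatives chosen after seeing the data. Of 39 alternatives in all, 28 left the value within its interval or within 1.5 times the count. No paired analysis was possible because each group has 1 library. Depth and threshold limit every count, and neither is known. The share of H3K4me3 peaks near gene starts was not run, for want of an annotation of mm9.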

Other observations

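Some treated peaks without an untreated neighbour were left out by the rule. Of the 1814 treated peaks more than 1000 bp from any untreated one, 15 overlapped an input peak, with a median width of 598 bp, and 11 were over 7000 bp wide, at 7055 to 9030 bp. The input-overlapping ones included 3 on chromosome X and 1 at chr9:3029983-3030437 (455 bp), chosen after their values were seen. A further 40 treated peaks overlapped no untreated peak but lay within 1000 bp of one.

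The H3K4me3 peaks present in both conditions that lay nearest to gained peaks were compared for width, a step added once the lists were known. A pair was a treated and an untreated peak with overlap between these 2 alone. Within 10 kb of a gained peak, 218 of 387 such pairs were wider in treated cells (56.3%, 51.4 to 61.2), with median widths of 1849 bp treated and 1698 bp untreated. Among all 16016 pairs 46.7% (45.9 to 47.5) were wider in treated cells. Within 20 kb the share was 54.0% (50.1 to 57.8), and within 50 kb it was 51.4% (48.4 to 54.4). Within 10 kb the log2 width ratio, treated over untreated, had a median of 0.04 (0.01 to 0.07), against -0.02 for all pairs. Within 10 kb of lost peaks, 79 of 150 pairs (52.7%, 44.7 to 60.5) were wider in treated cells, an interval that overlaps that for gained peaks.

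A lost peak lay within 20 kb of 51 of the 1788 gained peaks (2.85%, 2.18 to 3.73) and of 333 of the 16115 treated peaks that overlap an untreated one (2.07%, 1.86 to 2.30).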
